A study of Hordeum vulgare with 10 samples.

Results

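Peroxidase transcripts of barley roots were followed here through a 2 h treatment with fungal lipids. Class III peroxidases are secreted haem enzymes that plants encode in large gene families. They use hydrogen peroxide to oxidize phenolic substrates, and in this way couple monolignols to lignin, cross-link extensins and ferulate groups of the grass cell wall, and take part in suberin deposition. Some members, as shown in *Arabidopsis*, also produce reactive oxygen species in the apoplast after elicitor perception. In roots, they are known for the lignification of the Casparian strip and of the xylem.

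The transcripts were chosen by their description and their abundance. A transcript was taken when its description contained the word peroxidase, but not glutathione peroxidase, ascorbate peroxidase or thioredoxin, and when its mean over all 10 libraries reached 1 TPM (a unit of abundance that gives each transcript's share of its library, scaled by transcript length). Of 224 transcripts with such a description, 112 from 109 loci reached this level, out of 18330 transcripts that did so among the 37962 distinct transcripts of the table. The description read Peroxidase for 104 of the 112 and Peroxidase family protein for 2, which leaves the class unstated. The remaining 6 were described as acid phosphatase or vanadium-dependent haloperoxidase related proteins, which are not haem enzymes and do not belong to class III. The 112 are therefore called peroxidase transcripts below. The haloperoxidase-related ones stay in the counts, sums and medians over the 112, and are also given separately. Identifiers are shortened by their common start HORVU.MOREX.r3, and the digit and H at their front name the barley chromosome. All 112 were tested, and as the mean over the libraries chose them, their abundance is described and not tested.

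Roots of 7-d-old seedlings of *Hordeum vulgare* cv Golden Promise were cut into 5 mm pieces, which recovered overnight in MES buffer before treatment. Ergosterol, the main sterol of many fungi, was given at a final concentration of 250 nM (3 libraries), and a lipid extract of the root endophyte *Serendipita indica* was diluted to 1 : 160 in the well (4 libraries). The solvent control (3 libraries) received methanol alone, diluted to 1 : 40, which the wells of all 3 groups contained. All roots were taken at 2 hpt, and each replicate combined the pieces of 2 wells. The methods of the paper name 4 replicates per treatment, more than the 3 libraries each of the solvent control and ergosterol. The pieces of every group were wounded by cutting, so the solvent control is not an intact root. The labels do not say whether replicates came from separate plants or experiments, so p-values measure only the spread between these libraries.

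Depth is unknown, because TPM keep no read totals, and precision can be judged only from how far replicates lie apart. Between 17960 and 18653 transcripts reached 1 TPM in a library, and pairs of libraries correlated with Pearson's r of 0.959 to 0.982 across the tested transcripts, on the scale of log2(TPM + 1). The summed TPM of 42 root marker transcripts (Casparian strip proteins, high-affinity nitrate transporters, nicotianamine synthases and the like), of which 15 to 18 were above 0 in a library, ranged from 692 to 1007 per library, against 3.25 to 7.77 for 12 markers of green tissue, of which 3 to 5 were above 0. The libraries ergosterol 1 and *S. indica* lipids 4 stood apart for a subset of the peroxidase transcripts, as described below. In bulk roots, fewer cells of a type and less RNA per cell cannot be told apart.

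The TPM of the peroxidase transcripts summed to 10815 ± 816 (SD, n = 3) in the solvent control, 11320 ± 419 (SD, n = 3) upon ergosterol and 11956 ± 583 (SD, n = 4) upon *S. indica* lipids, which is 0.999 to 1.26% of a library. The sums of the 3 groups overlapped, with solvent control libraries at 9994, 10826 and 11625 TPM, ergosterol libraries at 10837, 11540 and 11584 TPM, and *S. indica* lipid libraries at 11204, 12570, 12211 and 11841 TPM. Between 73.3 and 75.7% of this sum came from the 10 most abundant transcripts. In the solvent control, 3 transcripts had a mean of at least 1000 TPM, 15 lay between 100 and 1000, 36 between 10 and 100, 56 between 1 and 10, and 2 below 1.

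**Figure D1:**
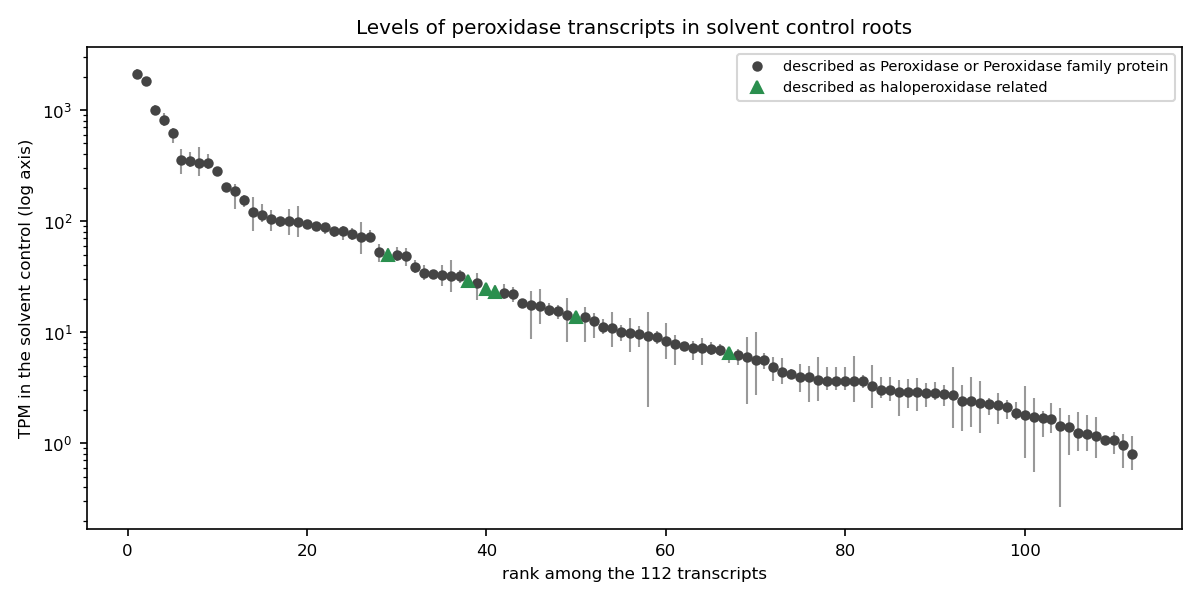
Mean TPM in the solvent control (log axis) of the 112 peroxidase transcripts, ordered by rank, with lines for the range over 3 libraries and triangles for the 6 transcripts described as haloperoxidase related. The levels run from 2097 TPM down to below 1 TPM, and the haloperoxidase-related transcripts lie between 6.43 and 50.0 TPM.

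The most abundant was 2HG0215250.1, with 1921, 2024 and 2347 TPM in the solvent control, 2177, 2423 and 2427 TPM upon ergosterol, and 2305, 2614, 2668 and 2453 TPM upon *S. indica* lipids. Its treated libraries overlapped with those of the control, and its log2FC (the log2 fold change of TPM + 1 against the solvent control) was 0.16 upon ergosterol and 0.26 upon *S. indica* lipids. The adjusted p were 0.436 and 0.233. It was followed by 7HG0713280.2 at 1825 TPM in the solvent control, 3HG0325250.1 at 1005 TPM, 2HG0215280.1 at 821 TPM and 2HG0215300.1 at 626 TPM. The next 5 were 2HG0112640.1 (352 TPM), 1HG0021690.1 (350 TPM), 7HG0643670.1 (335 TPM), 2HG0217960.1 (335 TPM) and 2HG0169250.1 (282 TPM). None of these 10 passed the test in either comparison with the solvent control, and the 3 above 1000 TPM had log2FC between 0.09 and 0.26. The ranges over the solvent control libraries overlapped among 2HG0112640.1, 1HG0021690.1, 7HG0643670.1, 2HG0217960.1 and 2HG0169250.1, so the order of these 5 as a whole is not set. Within each solvent control library, however, 1HG0021690.1 lay above 2HG0217960.1, which lay above 2HG0169250.1. The ranges of 2HG0215250.1 and 7HG0713280.2 overlapped as well, but 2HG0215250.1 was the higher of them in every library.

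The largest log2FC among these 10 belonged to 7HG0643670.1. It had 253, 288 and 464 TPM in the solvent control, 112, 271 and 184 TPM upon ergosterol, and 260, 299, 390 and 157 TPM upon *S. indica* lipids. The groups overlapped, and the lowest values stood in ergosterol 1 and *S. indica* lipids 4. Its log2FC upon ergosterol was −0.86 (SE 0.368, adjusted p = 0.229), and −0.53 without ergosterol 1.

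Some members were transcripts of the same locus or could not be separated from each other. The locus 7HG0713280 was represented by 2 transcripts, of which 7HG0713280.2 had 1825 TPM and 7HG0713280.1 had 76.2 TPM in the solvent control. The locus 1HG0030320 had 3, with 12.6, 2.28 and 1.42 TPM for 1HG0030320.1, 1HG0030320.2 and 1HG0030320.3. The transcripts 2HG0215440.1, 2HG0215460.1 and 2HG0215490.1 had the same TPM in every library, from 3.01 to 4.85 in the solvent control, so the 112 members give 110 distinct patterns and these 3 count as a single measurement. Estimates for other near-identical copies of this family may also share reads, and their values are uncertain to that extent.

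Just above the limit of 1 TPM were 5HG0488200.1 and 1HG0030320.3, both with a mean of 1.02 TPM, and just below it were 7HG0684180.1 with 0.987 TPM and 7HG0729010.1 with 0.969 TPM. Of the 112 described transcripts below the limit, 35 were listed at 0 in every library, 22 reached 1 TPM in at least 1 library, and 2 had a treated mean above 1 TPM. With no minimum abundance, 189 described transcripts could be fitted, and the same number passed as with the limit, 1 upon ergosterol and 4 upon *S. indica* lipids.

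The first question of the design was which transcripts respond to ergosterol. Calls required 2 limits, a log2FC of 1 or more in either direction and an adjusted p no higher than 0.05. Upon ergosterol, 1 of 112 peroxidase transcripts (0.893%) was called, a rise, against 1.23% of all transcripts tested in either direction and 1.16% in the higher one, so the share of the family lay near that of all transcripts. By the adjusted p alone, 4 (3.57%) passed, all higher upon ergosterol, against 3.31% of all transcripts in either direction and 2.85% in the higher one. No peroxidase transcript passed in the lower direction, in which 0.458% of all transcripts had such an adjusted p. By limma 12 peroxidase transcripts had an unadjusted p under 0.05 in the lower direction and 7 in the higher one. The share of all transcripts was not split by direction for the unadjusted p, so these counts are not read as a fall. In either direction this applied to 19 (17.0%), against 19.7% of all transcripts.

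Upon *S. indica* lipids, 4 of 112 peroxidase transcripts (3.57%) were called, all of them rises, against 1.26% of all transcripts tested in either direction and 1.17% in the higher one. The adjusted p alone gave 7 (6.25%), all higher, against 3.87% of all transcripts in either direction and 3.29% in the higher one. Here too none passed in the lower direction, in which 0.584% of all transcripts did. By limma 3 peroxidase transcripts had an unadjusted p under 0.05 in the lower direction and 11 in the higher one, again without a share of all transcripts by direction. In either direction this applied to 14 (12.5%), against 15.3%. Without *S. indica* lipids 4, 2 were called, and without solvent control 2 also 2 rises, beside a fall of 1HG0030320.3 (log2FC −1.36), a transcript at the limit of abundance. Both comparisons share their solvent control libraries, so the values of each transcript are given side by side and their likeness is not counted as a result.

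**Figure D2:**
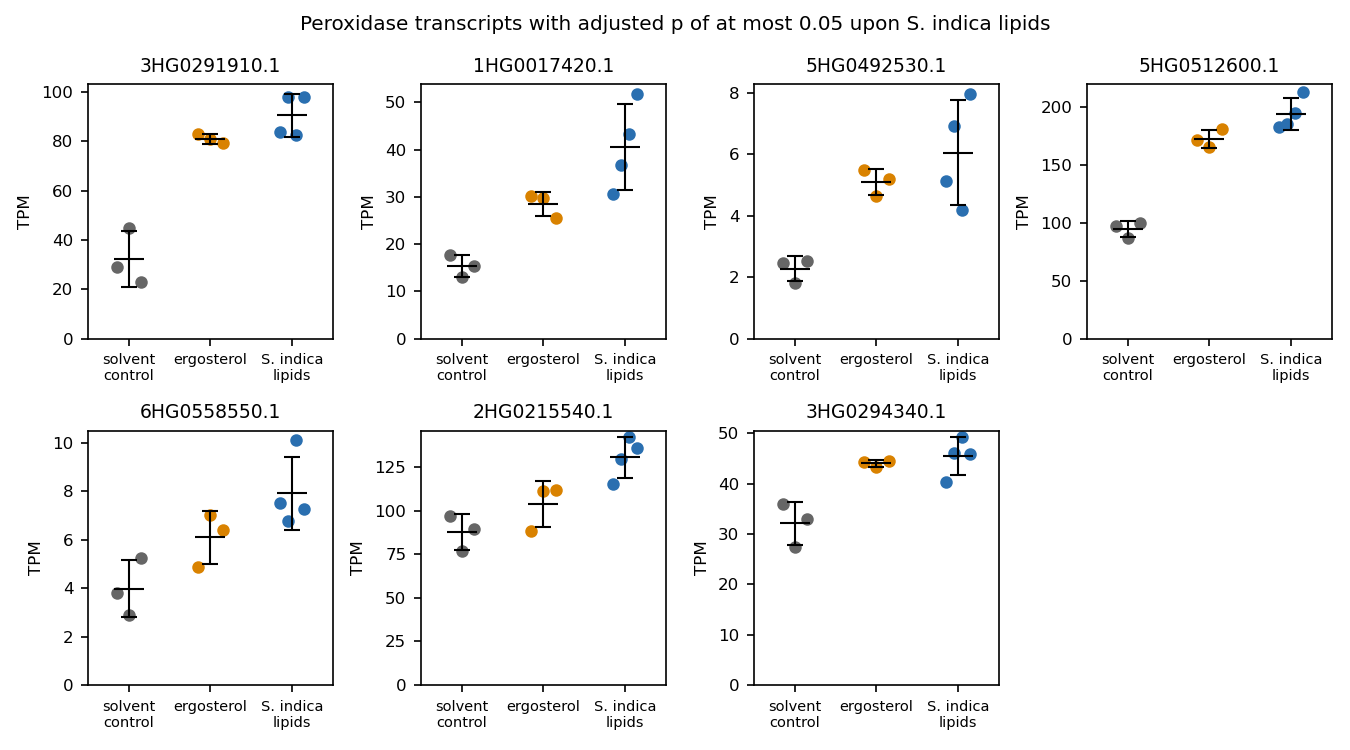
TPM per library (points) with mean and SD (lines) of the 7 peroxidase transcripts with an adjusted p of at most 0.05 upon *S. indica* lipids, in the solvent control (3 libraries), upon ergosterol (3) and upon *S. indica* lipids (4); each axis starts at 0. In all 7 panels the 4 *S. indica* lipid libraries lie above the 3 solvent control libraries.

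The transcript called in both comparisons was 3HG0291910.1, described as Peroxidase. It had 29.0, 44.8 and 22.9 TPM in the solvent control, 83.0, 80.9 and 79.1 TPM upon ergosterol, and 83.8, 97.8, 82.4 and 98.1 TPM upon *S. indica* lipids. Every treated library lay above every solvent control library, and the treated groups overlapped each other. Its mean rose from 32.2 ± 11.3 to 81.0 ± 1.93 TPM upon ergosterol (SD, n = 3 each), a log2FC of 1.36 (SE 0.191, adjusted p = 0.00312). Upon *S. indica* lipids it rose to 90.5 ± 8.61 TPM (SD, n = 4), a log2FC of 1.51 (SE 0.178, adjusted p = 0.000891). Both calls held in all 10 fits that left out 1 library each.

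Its neighbour by identifier among the members, 3HG0291890.1, was more abundant and did not pass, with log2FC of 0.19 upon ergosterol and 0.21 upon *S. indica* lipids. It had 105, 80.7 and 125 TPM in the solvent control and between 112 and 124 TPM in the treated libraries. Of the other neighbours, 3HG0291870.1 had log2FC of −0.79 (SE 0.404) and −0.30 (SE 0.378), and 3HG0291900.1 was below the limit with a mean of 0.867 TPM.

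The transcript 1HG0017420.1 rose upon *S. indica* lipids. It had 17.6, 13.1 and 15.5 TPM in the solvent control, 30.2, 29.7 and 25.5 TPM upon ergosterol, and 30.6, 36.7, 43.4 and 51.9 TPM upon *S. indica* lipids. The 3 groups did not overlap. The log2FC was 1.33 (SE 0.166, adjusted p = 0.00130) upon *S. indica* lipids, and this call held in all 10 fits without 1 library. Upon ergosterol it was 0.85 (SE 0.177, adjusted p = 0.0257), under the limit of fold change, and its adjusted p was at most 0.05 in 5 of the 10 fits. Without solvent control 2 or 3, or without any 1 of the ergosterol libraries, that adjusted p was 0.0572 to 0.110. Between both treatments the log2FC was −0.47 (SE 0.166, adjusted p = 0.907), so no difference between ergosterol and *S. indica* lipids was established. Of the 5 other members among its neighbours, from 1HG0017280.1 to 1HG0017460.1, none passed, and their log2FC upon *S. indica* lipids lay between 0.05 and 0.58.

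The transcript 5HG0512600.1 had the smallest standard error of the responders. It had 97.2, 87.3 and 100.1 TPM in the solvent control, 172, 166 and 181 TPM upon ergosterol, and 183, 186, 195 and 213 TPM upon *S. indica* lipids. The 3 groups did not overlap. The log2FC was 1.03 (SE 0.0840, adjusted p = 0.000121) upon *S. indica* lipids and 0.86 (SE 0.0899, adjusted p = 0.000473) upon ergosterol. With a log2FC so close to 1 the call upon *S. indica* lipids turned on single libraries, as it was 0.97 without solvent control 2 and 0.98 without *S. indica* lipids 4, while the adjusted p upon either treatment stayed at most 0.05 in all 10 fits. The neighbouring member 5HG0512620.1 did not pass, with log2FC of −0.52 upon ergosterol and −0.06 upon *S. indica* lipids.

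The fourth call, 5HG0492530.1, was a transcript of low abundance. It had 2.47, 1.80 and 2.54 TPM in the solvent control, 5.47, 4.63 and 5.18 TPM upon ergosterol, and 5.13, 6.91, 4.17 and 7.96 TPM upon *S. indica* lipids. All treated libraries lay above all solvent control libraries. The log2FC was 1.08 (SE 0.189, adjusted p = 0.00844) upon *S. indica* lipids and 0.90 (SE 0.202, adjusted p = 0.0372) upon ergosterol, on a scale that understates the change of low transcripts, and the ratios of the means were 2.67 and 2.25. Without solvent control 2 or *S. indica* lipids 4 its log2FC upon *S. indica* lipids was 0.98 or 0.96 and it was no longer called. Upon ergosterol its adjusted p was at most 0.05 in 3 of the 10 fits, and between 0.0510 and 0.142 without any 1 solvent control library, any 1 ergosterol library or *S. indica* lipids 2.

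The other 3 of the 7 transcripts passed the adjusted p upon *S. indica* lipids and stayed under the limit of fold change. The transcript 2HG0215540.1 had 97.0, 76.8 and 89.5 TPM in the solvent control, 88.5, 111 and 112 TPM upon ergosterol, and 115, 129, 142 and 136 TPM upon *S. indica* lipids. Its ergosterol libraries overlapped with the control and its *S. indica* lipid libraries did not, and its log2FC was 0.24 (SE 0.125) upon ergosterol and 0.57 (SE 0.117) upon *S. indica* lipids, at adjusted p of 0.320 and 0.0203. The log2FC between both treatments was −0.33 (SE 0.117, adjusted p = 0.907), so a difference between them was not established for this transcript either.

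The transcript 3HG0294340.1 had 36.0, 27.5 and 32.9 TPM in the solvent control, 44.4, 43.2 and 44.4 TPM upon ergosterol, and 40.3, 46.1, 49.4 and 45.9 TPM upon *S. indica* lipids. All treated libraries lay above the control, and the log2FC was 0.45 (SE 0.111) upon ergosterol, with an adjusted p of 0.0566 just over the limit, and 0.49 (SE 0.104) upon *S. indica* lipids, with one of 0.0237. The transcript 6HG0558550.1 had 3.81, 2.87 and 5.22 TPM in the solvent control, 4.86, 7.01 and 6.38 TPM upon ergosterol, and 7.50, 6.77, 10.1 and 7.26 TPM upon *S. indica* lipids. Its ergosterol libraries overlapped with the control, where its log2FC was 0.53 (SE 0.202) at an adjusted p of 0.187. Upon *S. indica* lipids it was 0.86 (SE 0.189) at an adjusted p of 0.0292. For each of these 3, the adjusted p upon *S. indica* lipids was at most 0.05 in 5 of the 10 fits that left out 1 library, and it reached 0.0756 for 2HG0215540.1 and 0.0760 for 3HG0294340.1 without solvent control 2, and 0.0962 for 6HG0558550.1 without that same library. Without solvent control 3, 6HG0558550.1 was called with a log2FC of 1.03.

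**Figure D3:**
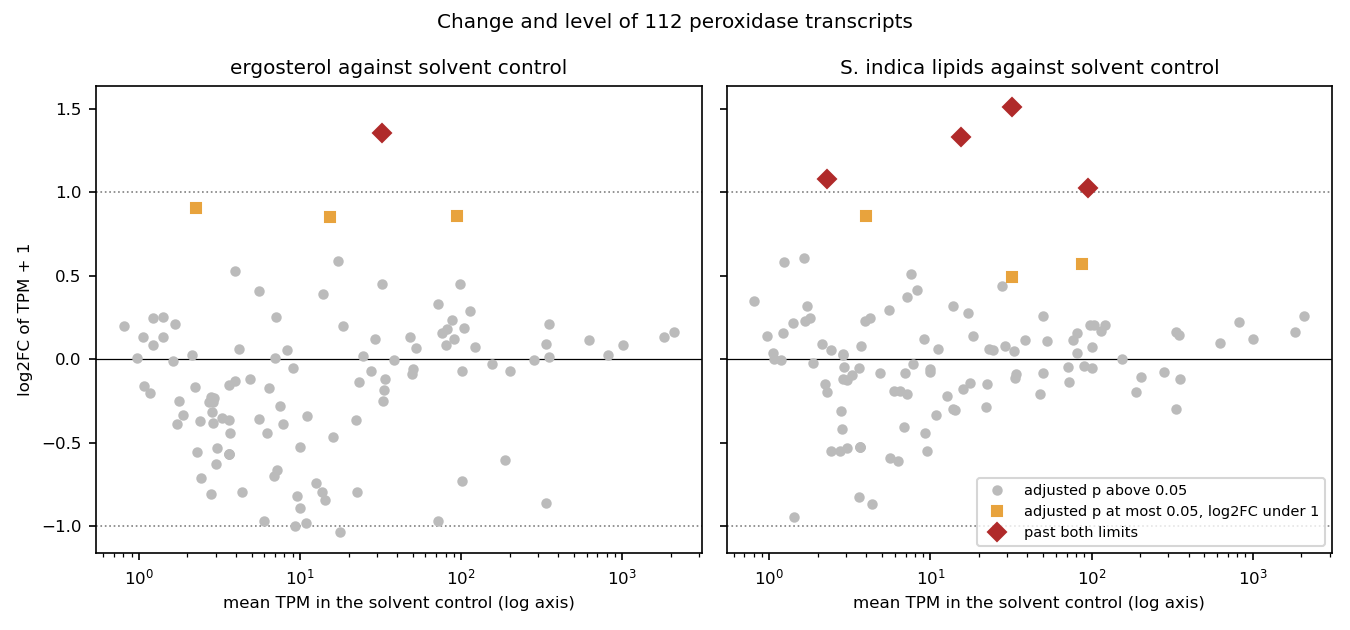
log2FC of TPM + 1 against the mean TPM in the solvent control (log axis) for the 112 peroxidase transcripts, upon ergosterol (left) and upon *S. indica* lipids (right); diamonds passed both limits, squares the adjusted p alone, and dotted lines mark log2FC of 1 and −1. The called transcripts lie between 2.27 and 94.9 TPM, and the transcripts with log2FC near −1 in the left panel did not pass.

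Over all 112, the family was centred near 0. The median log2FC was −0.12 upon ergosterol (−0.08 over all transcripts tested) and 0.02 upon *S. indica* lipids (−0.04 over all), and the latter fell below 0 without solvent control 1 or without *S. indica* lipids 2. Upon ergosterol 45 members (40.2%) had a log2FC above 0, against 36.9% of all transcripts, and upon *S. indica* lipids 58 (51.8%), against 41.2%. The extremes were 1.36 and −1.03 upon ergosterol, and 1.51 and −0.95 upon *S. indica* lipids.

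All ergosterol libraries lay above all solvent control libraries for 8 members (7.14%), against 9.09% of all transcripts, and below them for 13 (11.6%), against 17.0%. Upon *S. indica* lipids, 8 members (7.14%) lay above, against 6.85% of all transcripts, and 2 (1.79%) below, against 6.40%. The 13 that lay below upon ergosterol had log2FC from −0.80 to −0.18 and adjusted p from 0.109 to 0.377. They include 2HG0215440.1, 2HG0215460.1 and 2HG0215490.1, which have the same TPM and count as a single measurement. The smallest of these adjusted p belonged to 4HG0378960.1, which had 2.43, 3.53 and 2.48 TPM in the solvent control, 1.00, 0.688 and 2.00 TPM upon ergosterol, and 2.13, 2.21, 1.94 and 1.16 TPM upon *S. indica* lipids. Its treated libraries lay below the control upon both treatments, and it did not pass the test (log2FC −0.80, SE 0.242 upon ergosterol). It was named after its values were seen.

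Compared directly, ergosterol and *S. indica* lipids gave no called peroxidase transcript, and none was called among all transcripts (0.00%). By limma, 9 members (8.04%) had an unadjusted p under 0.05 in this comparison, against 5.32% of all transcripts, and 0 passed the adjusted p, against 0.00546% of all transcripts, a single transcript that was higher upon ergosterol. The median log2FC of ergosterol against *S. indica* lipids was −0.13 over the members and −0.03 over all transcripts, and 31 members (27.7%) lay above 0, against 40.5% of all transcripts. A pass upon *S. indica* lipids and not upon ergosterol is therefore not shown to be a difference between the treatments for any member.

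Many of the loci follow each other in the numbering of the annotation, and 63 members belonged to runs of at least 2 described loci whose identifier numbers were at most 100 apart. The runs with at least 4 members were 4, and held 31 members. The largest, from 2HG0215250.1 to 2HG0215610.1, held 13 members whose mean in the solvent control ranged from 3.64 to 2097 TPM. It contained 3 of the 5 most abundant peroxidase transcripts, the 3 with the same TPM, and 2HG0215540.1. Its log2FC ranged from −1.03 to 0.24 upon ergosterol, with a median of −0.56, and from −0.86 to 0.57 upon *S. indica* lipids, with a median of −0.14. Without ergosterol 1 the range upon ergosterol was −0.63 to 0.35, with a median of −0.49. Without *S. indica* lipids 4 the range upon *S. indica* lipids was −0.56 to 0.55, and the median was above 0, at 0.13. Neighbours differed in level, as 2HG0215300.1 had 675, 510 and 691 TPM in the solvent control and the adjoining 2HG0215310.1 had 8.70, 20.8 and 23.6 TPM. Their log2FC upon ergosterol were 0.12 and −1.03, and neither passed, so a difference in the sign of change was not established.

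**Figure D4:**
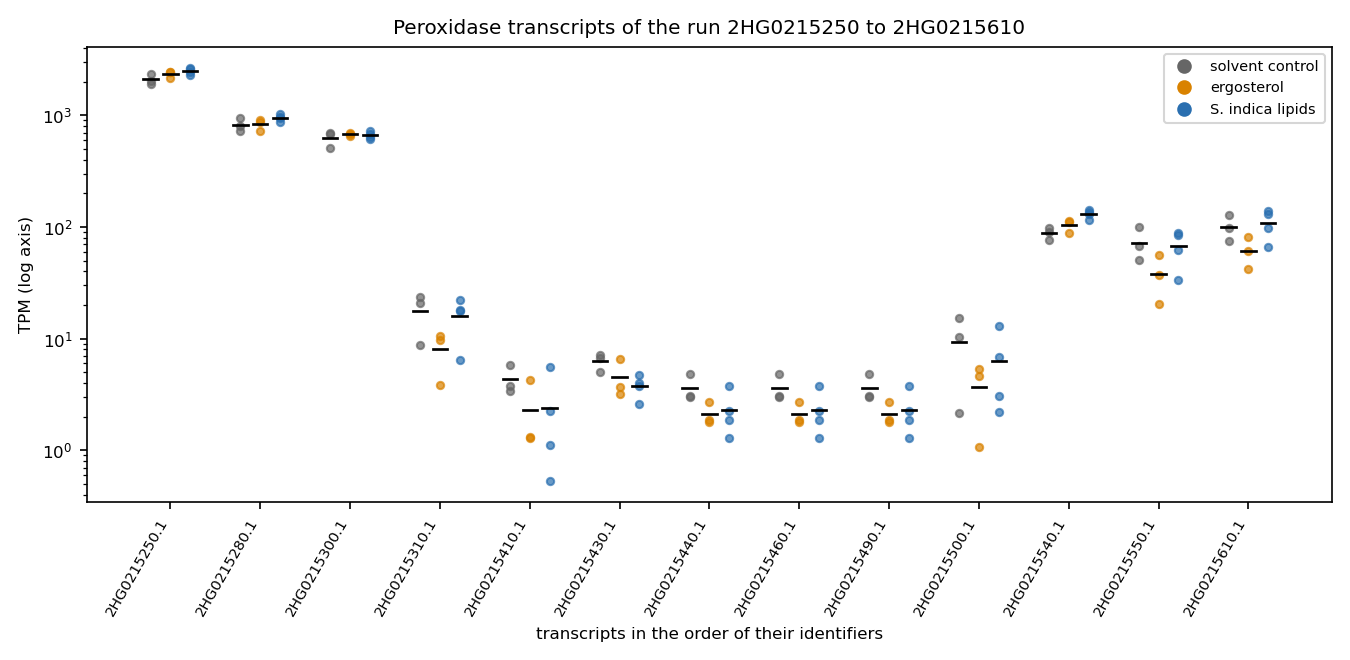
TPM per library (points, log axis) and group means (lines) of the 13 peroxidase transcripts in the run from 2HG0215250.1 to 2HG0215610.1, in the order of their identifiers. The first 3 transcripts lie at 510 TPM or more in every library, and 3 neighbours carry the same values.

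The run around 1HG0017420.1, with 6 members, is given above. Another run, from 2HG0112580.1 to 2HG0112720.1, held 7 members at 1.71 to 352 TPM in the solvent control, with log2FC from −0.39 to 0.59 upon ergosterol and from −0.11 to 0.32 upon *S. indica* lipids. None of them passed, apart from 2HG0112610.1 by the adjusted p alone (0.0331, log2FC 0.71) upon ergosterol in the fit without solvent control 2. In the run from 3HG0254930.1 to 3HG0255020.1, all 5 described loci were members, at 2.41 to 22.6 TPM. Upon ergosterol all 5 had a log2FC between −0.89 and −0.70 with adjusted p from 0.163 to 0.461, and upon *S. indica* lipids between −0.40 and 0.06. As an example, 3HG0254940.1 had 20.1, 20.7 and 27.0 TPM in the solvent control, 9.93, 11.3 and 17.4 TPM upon ergosterol, and 26.5, 30.2, 19.4 and 10.4 TPM upon *S. indica* lipids. The ergosterol range of the run was −0.64 to −0.49 without ergosterol 1, and without *S. indica* lipids 4, which enters the estimate of the spread, 3HG0254930.1 passed the adjusted p alone (0.0258, log2FC −0.70).

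The replicates of the peroxidase transcripts had a larger median spread than those of all transcripts. The median SD of log2(TPM + 1) within a treatment was 0.270 in the solvent control, 0.222 upon ergosterol and 0.281 upon *S. indica* lipids, against 0.180, 0.149 and 0.188 over all transcripts tested. The median standard error of the log2FC was 0.222 upon ergosterol and 0.208 upon *S. indica* lipids, against 0.160 and 0.150 over all transcripts.

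The spread was not shared evenly among the libraries. In *S. indica* lipids 4, 26 members (23.2%) lay below 50% of the median of the other libraries of their treatment, against 4.57% of all transcripts tested. In ergosterol 1 this applied to 15 members (13.4%), against 2.61%, and in solvent control 1 to 10 (8.93%), against 5.05%. In the other 7 libraries it applied to 1 to 6 members. The low members of ergosterol 1 and *S. indica* lipids 4 overlapped in 12 transcripts, which are 80.0% of the former and 46.2% of the latter, and 11 of these 12 were also lowest in solvent control 1 within the control, as were 45.5% of all members and 49.2% of all transcripts tested.

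**Figure D5:**
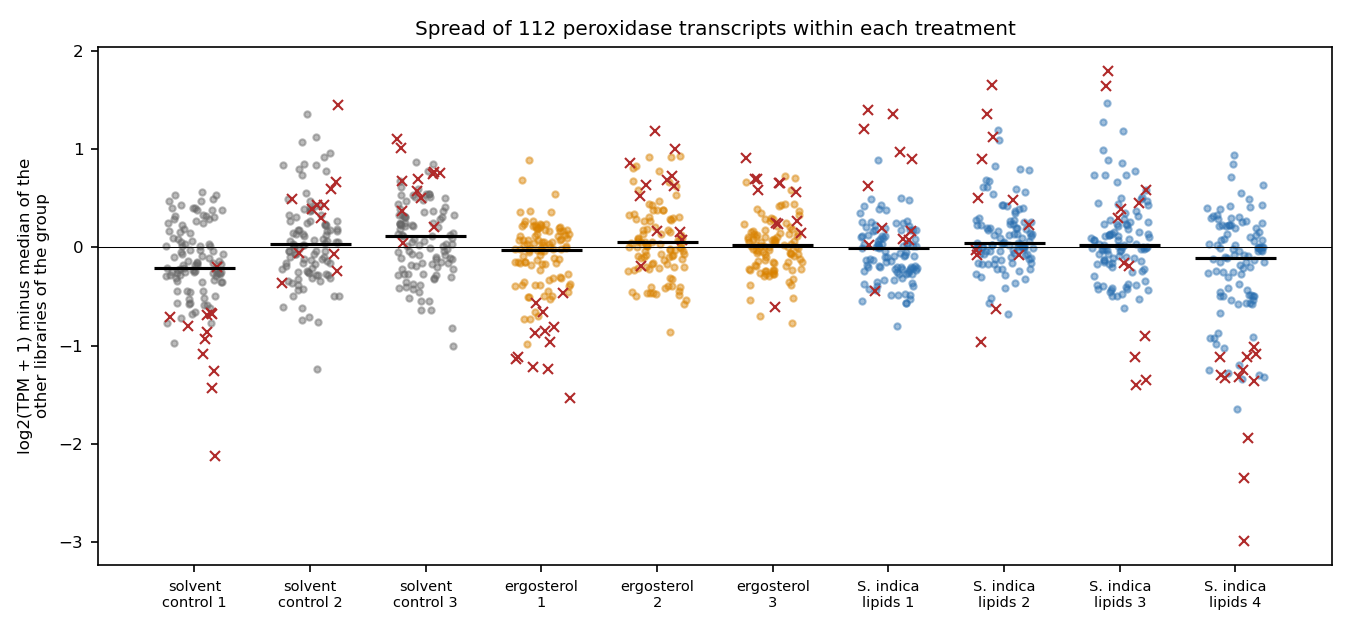
log2(TPM + 1) of each of the 112 peroxidase transcripts minus the median of the other libraries of its treatment, by library; bars are medians, and red crosses mark the 12 transcripts below 50% of that median in both ergosterol 1 and *S. indica* lipids 4. All 12 crosses also lie below 0 in solvent control 1.

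The 12 had means of 1.71 to 72.0 TPM in the solvent control. They included 4 of the run from 2HG0215250.1 and 2 of the run from 3HG0254930.1, and were named after their values were seen. The transcript 2HG0215550.1 had 50.1, 66.9 and 99.0 TPM in the solvent control, 20.2, 56.0 and 37.4 TPM upon ergosterol, and 62.2, 88.2, 85.0 and 33.3 TPM upon *S. indica* lipids. The transcript 2HG0215310.1, with the lowest log2FC upon ergosterol (−1.03, SE 0.484, adjusted p = 0.266), had 3.82, 9.76 and 10.6 TPM upon ergosterol and 18.1, 17.8, 22.0 and 6.41 TPM upon *S. indica* lipids. The transcript 7HG0728480.1 had 2.23, 6.63 and 8.96 TPM in the solvent control, 1.20, 2.44 and 3.32 TPM upon ergosterol, and 10.6, 10.7, 3.57 and 0.464 TPM upon *S. indica* lipids.

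The 3 groups overlapped in each of these examples. None of the 12 passed the adjusted p in either comparison. The summed TPM of the root markers was 849 in ergosterol 1, against 879 and 880 in the other ergosterol libraries. In *S. indica* lipids 4 it was 788, against 893, 892 and 937. Each was thus the lowest sum of its treatment, and both lay within the range of the solvent control libraries, 692 to 1007. The summed TPM of the Casparian strip membrane proteins, some of which are among the root markers, went the other way. It was 2395 in ergosterol 1, against 2307 and 2375 in the other ergosterol libraries. In *S. indica* lipids 4 it was 2454, against 2107, 2218 and 2356. Both were the highest sums of their treatment. The part that tissue composition or RNA quality has in the low values of the 12 was not tested. Without both libraries, an alternative chosen after the data were seen, 1 member was called upon ergosterol and 2 upon *S. indica* lipids. These were 3HG0291910.1 (log2FC 1.34 and 1.47) and, upon *S. indica* lipids, 1HG0017420.1 (1.21), while 5HG0492530.1 and 5HG0512600.1 kept an adjusted p of 0.0374 and 0.00142 at log2FC of 0.96 and 0.98.

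The 6 haloperoxidase-related transcripts were at 6.43 to 50.0 TPM in the solvent control and none passed, with log2FC from −0.17 to 0.39 upon ergosterol and from −0.19 to 0.32 upon *S. indica* lipids. The upper value of both ranges belonged to 7HG0708900.1, whose treated libraries all lay above the control. Counting only the 104 transcripts described exactly as Peroxidase left 1 call upon ergosterol and 4 upon *S. indica* lipids. Their median log2FC was −0.14 upon ergosterol and 0.02 upon *S. indica* lipids. Their mean summed TPM was 10418 in the solvent control, 10924 upon ergosterol and 11574 upon *S. indica* lipids.

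Genes that supply or remove the substrate of peroxidases were counted by their descriptions. Of all transcripts tested, 1.23% were called in either direction upon ergosterol and 1.26% upon *S. indica* lipids. By limma, 3.31% and 3.87% passed the adjusted p alone, and 19.7% and 15.3% had an unadjusted p under 0.05. Of the respiratory burst oxidases, the plasma membrane NADPH oxidases that produce superoxide, 10 were tested and 0 called in either comparison, and by limma 1 in each passed the adjusted p alone, with 3 and 1 at an unadjusted p under 0.05. None of 12 superoxide dismutases and 9 amine and polyamine oxidases, which yield hydrogen peroxide, passed the adjusted p of limma in either comparison, with 1 and 1 at an unadjusted p under 0.05 upon ergosterol and 0 and 2 upon *S. indica* lipids. Of the enzymes that remove peroxides, 2 catalases, 2 ascorbate peroxidases, 5 glutathione peroxidases and 4 peroxiredoxins were tested, and none passed the adjusted p of limma either. At an unadjusted p under 0.05 there were 1 peroxiredoxin upon ergosterol, and 2 peroxiredoxins and 1 glutathione peroxidase upon *S. indica* lipids. Among germin-like proteins, cell wall proteins of which some have oxalate oxidase or superoxide dismutase activity in cereals, 4 of 29 rose upon ergosterol and 3 upon *S. indica* lipids. Of all transcripts tested 1.16% and 1.17% were called higher in these comparisons, and the counts of this list and of those that follow were given no test. The largest log2FC upon ergosterol belonged to 4HG0418820.1, with a mean of 5.93 TPM in the solvent control, 21.0 TPM upon ergosterol and 21.6 TPM upon *S. indica* lipids, and log2FC of 1.67 (SE 0.192) and 1.71 (SE 0.180) at adjusted p of 0.000827 and 0.000460. In the same groups 3HG0220160.1 had log2FC of 1.48 and 1.94, and 5HG0522100.1 of 1.19 and 1.33.

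Transcripts described as monolignol enzymes, laccases, dirigent proteins, extensins or hydroxyproline-rich proteins, and Casparian strip membrane proteins were counted in the same way. They are to be read against the same 1.16% upon ergosterol and 1.17% upon *S. indica* lipids. Of 55 monolignol enzymes, 4 rose upon ergosterol and 5 upon *S. indica* lipids, among them phenylalanine ammonia-lyase 2HG0182090.1, the entry enzyme of the phenylpropanoid pathway, with 53.1 TPM in the solvent control, 132 TPM upon ergosterol and 110 TPM upon *S. indica* lipids (log2FC 1.31 and 1.05). A cinnamoyl-CoA reductase, 7HG0651280.1, was called upon *S. indica* lipids with a log2FC of 1.29. Of 11 laccases, which like peroxidases oxidize monolignols, 2 rose upon ergosterol, with log2FC of 1.25 for 1HG0020450.1 and 1.13 for 3HG0313580.1, and 0 passed both limits upon *S. indica* lipids, where by limma 1 passed the adjusted p alone and 6 an unadjusted p under 0.05, against 3.87% and 15.3% of all transcripts. Of 31 dirigent proteins, which guide the coupling of phenoxy radicals, 2 rose upon ergosterol and 3 upon *S. indica* lipids, with the largest log2FC, 1.12 and 1.20, in 5HG0510240.1. Of 78 extensins and hydroxyproline-rich proteins, 3 rose upon each treatment, and none of these was described as an extensin. 3HG0300120.1 (log2FC 1.08 and 1.09), 1HG0082740.1 and, upon *S. indica* lipids, 6HG0560670.1 were described as late embryogenesis abundant hydroxyproline-rich glycoproteins, and 3HG0302750.1, called upon ergosterol, as hydroxyproline-rich glycoprotein-like. Neither description names a cell wall protein or a substrate of peroxidases. None of 26 Casparian strip membrane proteins passed the adjusted p of limma. An unadjusted p under 0.05 was found for 7 upon ergosterol and 4 upon *S. indica* lipids, against 19.7% and 15.3% of all transcripts. No transcript of these lists was called in the lower direction, in which 0.0709% and 0.0927% of all transcripts were called.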

How the data were processed

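RNA-Seq of 10 libraries of barley roots was used. The authors trimmed reads with Trimmomatic 0.39 and estimated abundance with kallisto 0.46.1, and they deposited 1 TPM value per transcript and library. Of 43382 lines, 5420 repeat a transcript with the same values and were dropped. The authors' own comparisons, given as deposited log2 fold changes of treatment means and as q-values from sleuth, were not used, and sleuth was not rerun. Log2(TPM + 1) of the 18330 transcripts whose mean reached 1 TPM was modelled in R 4.3.3 by limma 3.58.1, with a mean for every treatment, 3 contrasts, and variances moderated along a trend with abundance. The adjusted p of limma are corrected after Benjamini and Hochberg across the transcripts of each contrast. The fit was tested on simulated data with independent noise for every transcript and library. Such data hold no shift of a single library, so the test does not show how the deviations of ergosterol 1 and *S. indica* lipids 4 affect the calls.

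The members and lists were chosen with earlier results of these data known. The rule for names took members past both limits, the 10 most abundant, up to 5 of the largest and smallest log2FC among those with an adjusted p of at most 0.05, those next to 1 TPM, runs of at least 4 members, and at most 3 called transcripts per list. Alternatives were pseudocounts of 0.1 and 0.5, other minimum abundances, scalings, variance models, a replicate block, sums per locus, and each library left out. No identifier matched the gene table at hand, so sequences and positions are not given. Figures and summaries were made with Python 3.11.15, pandas 2.3.3 and matplotlib 3.10.9.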

Additional observations from a re-analysis of the deposited data

Results flagged for a closer look

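The transcript 1HG0030320.3, at the limit of abundance, had 0.850 TPM in *S. indica* lipids 1, and was flagged there by Dixon's criterion. It was listed at 9.26e-10, 0 and 0 TPM in the other libraries of that treatment. Beside such values the criterion flags almost any value above 0, so the flag says nothing about this library. It had 1.91, 0.266 and 2.07 TPM in the solvent control and 1.98, 1.23 and 1.90 TPM upon ergosterol, and its log2FC upon *S. indica* lipids was −0.95 (adjusted p = 0.192). The other transcripts of this locus, 1HG0030320.1 and 1HG0030320.2, had means of 11.0 and 1.75 TPM upon *S. indica* lipids. Of 19 named transcripts examined in this way it was the only one. Chance alone marks about 1 in 20 groups, a rate that does not hold for values at 0.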

How the results depend on the processing

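Of the values for named transcripts under the alternatives, 743 kept their outcome, whether called or not. A further 5 became called, 6 were no longer called, and no called value changed sign. Most of these values were not called in the main fit, so the 743 do not measure how firmly the calls held. Upon ergosterol 2 members were called with a pseudocount of 0.1 or 0.5, where 5HG0492530.1 joined 3HG0291910.1, and 4 by the adjusted p alone. Upon *S. indica* lipids 7 passed by the adjusted p alone. Upon *S. indica* lipids 2 were called without ergosterol 1 and *S. indica* lipids 4 together, an alternative chosen after seeing the data, and leaving out 1 library gave 2 to 5, with 2 without *S. indica* lipids 4 and 3 without solvent control 2, of which 1HG0030320.3 was lower (log2FC −1.36). With the replicate number as a block, 2 were called upon *S. indica* lipids and 1 upon ergosterol. The correlations of same-numbered libraries' deviations lay between −0.19 and 0.20, so the numbers were not taken to pair the samples, and *S. indica* lipids 4, alone with its number, adds nothing under the block. The median log2FC upon ergosterol (−0.12) was −0.0569 with no minimum abundance, −0.00409 at a minimum of 5 TPM, which keeps 70 members, and −0.0549 with median-ratio scaling, and at most −0.0689 without 1 library (solvent control 2). That upon *S. indica* lipids (0.02) was −0.0284 without solvent control 1, −0.0491 without *S. indica* lipids 2, 0.0777 without *S. indica* lipids 4 and −0.00791 with a pseudocount of 0.1. The median of ergosterol against *S. indica* lipids (−0.13) was −0.0759 with no minimum abundance, −0.0877 with median-ratio scaling, −0.0881 with quantile normalization, and −0.172 to −0.0906 over the fits without 1 library. The cause of these shifts was not tested. Read depth is unknown, so the precision of low transcripts rests on 3 or 4 libraries alone.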
